A study of Mus musculus with 6 samples.

Results

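The 27 genes described here lay lower in each library of circulating fibroadipogenic progenitors (FAPs) than in each library of muscle FAPs, and they were chosen by that difference. They include Id2, an inhibitor of basic helix-loop-helix transcription factors, Dnajb9, a chaperone of the endoplasmic reticulum, Gnaq, a G protein subunit, and Dkk3, a secreted glycoprotein. Reads per gene were counted by RNA-seq in 3 circulating libraries, from peripheral blood, and 3 muscle libraries. The strain field of all 6 samples reads MCAO, the usual short form of middle cerebral artery occlusion, a mouse model of ischaemic stroke, and no library of mice without it was analysed here. The labels name no age, sex, inbred strain, time after the occlusion or way of isolating the cells. They do not say that samples of 1 group came from separate mice either, so the spread between samples may be technical. In such bulk libraries, fewer cells of a type and less RNA per cell cannot be told apart.

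A level is given in CPM, the reads of a gene scaled to the same total of reads other than 18S ribosomal RNA in each library. A gene was taken when it had at least 30 CPM in each of the 3 muscle libraries and when its lowest muscle level was at least 3 times its highest circulating level. Of 3298 genes with at least 30 CPM in each muscle library, 41 met this. Patterns of the symbol removed 3 of them (Ifi30, Ifi203 and Ifit3) and a list of names removed 11, among them Meox1, Mgp and Penk, which left 27 of the 33276 genes in the table. The values that chose the genes are the values described, so each difference between the groups below is a description and supports no test. Turned round, the condition (at least 30 CPM in each circulating library, and the lowest of these at least 3 times the highest muscle level) was met by 14 of 2715 genes.

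FAPs are stromal cells of skeletal muscle that keep up its connective tissue, send growth signals to muscle stem cells during repair, and can become fibroblasts or fat cells. The 27 genes belong to no single pathway. By known role they hold 2 secreted regulators, 2 matrix proteins, 4 membrane proteins, 4 genes of enzymes and transport, 2 of intracellular signalling, 6 of transcription and chromatin, 2 of RNA, 3 of the cytoskeleton, secretory pathway and chaperones, and 2 of ubiquitin ligases. In the GENCODE M21 annotation 26 are protein coding, and Mirg is a long non-coding RNA.

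Circulating libraries held 3106011 to 7880709 reads other than 18S, against 12663430 to 15864333 in muscle libraries. One read was therefore worth 0.127 to 0.322 CPM in circulating libraries and 0.0630 to 0.0790 CPM in muscle libraries. The FAP marker Pdgfra was at 384, 463 and 416 CPM in circulating libraries 1, 2 and 3, compared with 1082, 709 and 678 CPM in muscle replicates 1, 2 and 3, and Ly6a and Cd34 lay between 1116 and 3060 CPM in the 6 libraries. Of the 7 FAP and mesenchymal markers, none was at 0, and their summed level was 38230 to 54435 CPM in circulating and 56075 to 67171 CPM in muscle libraries. They moved in different directions: each circulating library lay below each muscle library for Pdgfra and Dcn, the groups overlapped for Ly6a, Cd34 and Gsn, and each circulating library lay above each muscle library for Pi16 and Dpp4. Dpp4 was at 307, 437 and 149 CPM in circulating and 36.8, 57.6 and 29.7 CPM in muscle replicates 1, 2 and 3, and Pi16 at 570, 2855 and 2069 CPM in circulating and 537, 395 and 279 CPM in muscle replicates 1, 2 and 3. The summed level of 10 monocyte and macrophage markers was 86.0 to 584 CPM in circulating and 18.5 to 36.1 CPM in muscle libraries, and that of 8 neutrophil markers was 33.2 to 259 and 6.47 to 14.1 CPM. All 10 and all 8 of these markers had a higher mean in circulating libraries, with none at 0 throughout a group, and circulating replicate 2 held most of the complement genes C1qa (143 CPM) and C1qb (225 CPM). The neutrophil sums also rested on few genes in single libraries. S100a9 made up 121 of 144 CPM in circulating replicate 1, and S100a8 (132 CPM) and Camp (103 CPM) most of the 259 CPM in circulating replicate 3. The mean was lower in circulating libraries for only 1 of 10 lymphocyte and 1 of 10 muscle fibre markers. The same held for 1 of 6 platelet, 0 of 6 erythroid and 8 of 11 pericyte and smooth muscle markers. Higher means in circulating libraries were thus not particular to the monocyte and neutrophil lists. Read background, given below, was also higher in circulating libraries. The part of monocytes, macrophages and neutrophils in the differences below was not tested.

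Promoters are shown for Id2, Dnajb9 and Mcfd2, the 3 members most abundant in muscle, and for Gnaq and Plk2. Gnaq was the member of least spread in circulating libraries. Among the 15 members with a promoter window, Plk2 alone held the letters TGACGTCA of the cyclic AMP response element. Each promoter shown is the stretch of 150 bases before the gene's start in RefSeq on GRCm38.p6, 5′ to 3′ on the gene's strand. Matches of the motifs named below are in capitals.
Id2, chr12:25096093-25096242, minus strand: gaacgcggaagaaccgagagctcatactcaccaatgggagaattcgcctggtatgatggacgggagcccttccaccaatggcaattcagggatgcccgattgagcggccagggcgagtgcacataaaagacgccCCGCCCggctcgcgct
Dnajb9, chr12:44210069-44210218, minus strand: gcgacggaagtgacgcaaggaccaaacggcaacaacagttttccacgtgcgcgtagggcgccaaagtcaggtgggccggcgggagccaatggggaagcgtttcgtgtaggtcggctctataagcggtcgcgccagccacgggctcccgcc
Mcfd2, chr17:87265948-87266097, minus strand: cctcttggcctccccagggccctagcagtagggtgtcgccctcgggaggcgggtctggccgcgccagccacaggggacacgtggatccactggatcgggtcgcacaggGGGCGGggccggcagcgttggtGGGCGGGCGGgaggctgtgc
Gnaq, chr19:16132534-16132683, plus strand: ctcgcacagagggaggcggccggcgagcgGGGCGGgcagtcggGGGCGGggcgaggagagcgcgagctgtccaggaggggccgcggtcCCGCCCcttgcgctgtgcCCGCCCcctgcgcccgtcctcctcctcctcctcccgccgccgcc
Plk2, chr13:110394894-110395043, plus strand: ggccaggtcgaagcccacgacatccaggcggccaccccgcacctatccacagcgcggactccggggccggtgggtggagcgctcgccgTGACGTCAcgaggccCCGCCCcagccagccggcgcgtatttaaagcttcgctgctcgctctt

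The secreted regulators were among the lowest members in circulating FAPs. Dkk3, of the Dickkopf family of secreted glycoproteins, was at 5.58, 1.29 and 5.43 CPM in circulating libraries 1, 2 and 3, compared with 34.9, 51.7 and 71.2 CPM in muscle replicates 1, 2 and 3. The circulating values rest on 44, 4 and 23 reads, so replicate 2 is the least certain of them. Dkk3 had the largest ratio of lowest muscle to highest circulating level among the members, 6.26, and a log2 fold change (circulating minus muscle, in edgeR) of -4.19 ± 0.84 (SE). Wfdc1, a secreted protein with a whey acidic protein domain, was at 1.14, 10.3 and 8.50 CPM in circulating and 55.8, 85.4 and 56.9 CPM in muscle replicates 1, 2 and 3. Circulating replicate 1 stood well below the other circulating libraries for Wfdc1, with 9 reads.

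Both matrix members were at about the same mean in muscle. Fbln7, a fibulin, was at 5.96, 7.73 and 19.4 CPM in circulating and 147, 71.0 and 66.8 CPM in muscle replicates 1, 2 and 3. Matn2, which encodes the matrix adaptor matrilin-2, was at 16.4, 17.7 and 12.05 CPM in circulating and 59.1, 106 and 119 CPM in muscle replicates 1, 2 and 3. The 2 genes differed in which muscle library was highest, replicate 1 for Fbln7 and replicate 3 for Matn2.

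Among the membrane proteins, Cdh11, the cadherin of mesenchymal cells, was at 12.3, 7.73 and 11.8 CPM in circulating and 137, 46.1 and 61.9 CPM in muscle replicates 1, 2 and 3. Cdh11 had the largest spread of all members in muscle, a coefficient of variation of 59.6%. Emp2, a tetraspan membrane protein, was at 22.2, 4.19 and 10.6 CPM in circulating and 92.3, 158 and 80.6 CPM in muscle replicates 1, 2 and 3. Tmem204, a claudin-like protein known from endothelium, was at 8.37, 0.644 and 9.69 CPM in circulating and 38.6, 73.8 and 71.5 CPM in muscle replicates 1, 2 and 3. Only 2 reads of Tmem204 were counted in circulating replicate 2, which is below the 3 reads taken as the floor of that library (0.966 CPM). Tmem119, known from osteoblasts and from brain microglia, was at 2.79, 16.7 and 8.50 CPM in circulating and 57.2, 82.9 and 76.2 CPM in muscle replicates 1, 2 and 3. Summed over 8 endothelial markers, circulating libraries had 154 to 206 CPM and muscle libraries 133 to 176 CPM. Of these markers, Tek alone was at 156, 108 and 95.2 CPM in circulating and 110, 53.7 and 63.7 CPM in muscle replicates 1, 2 and 3. The markers moved in different directions, with a lower mean in circulating libraries for 3 of the 8. One of these, Kdr, was at 10.4, 6.76 and 17.5 CPM in circulating and 5.18, 18.8 and 70.5 CPM in muscle replicates 1, 2 and 3. The part of endothelial cells in the level of Tmem204 was not tested.

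Enzyme and transport genes ranged widely in level. Impdh2, the main IMP dehydrogenase of guanine nucleotide synthesis in growing cells, was at 15.0, 23.8 and 37.1 CPM in circulating and 120.5, 194 and 154 CPM in muscle replicates 1, 2 and 3. Aoc3, the amine oxidase also called vascular adhesion protein, was at 6.85, 10.3 and 11.8 CPM in circulating and 126, 73.6 and 64.1 CPM in muscle replicates 1, 2 and 3. For Aoc3 the order of the muscle libraries was the reverse of that for Matn2. Slc36a4, an amino acid transporter, was at 16.7, 13.2 and 22.9 CPM in circulating and 107, 71.0 and 104 CPM in muscle replicates 1, 2 and 3. Cbwd1, a zinc-binding GTPase, was at 6.98, 5.47 and 4.96 CPM in circulating and 59.8, 40.0 and 75.3 CPM in muscle replicates 1, 2 and 3. Slc36a4 was the member nearest to the limit of the rule, with a ratio of lowest muscle to highest circulating level of 3.10.

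Gnaq and Plk2 act in intracellular signalling. Gnaq, the G protein alpha subunit that couples receptors to phospholipase C, was at 37.3, 34.4 and 36.6 CPM in circulating and 151, 137 and 160 CPM in muscle replicates 1, 2 and 3. It had the least spread of all members in circulating libraries (4.13% coefficient of variation) and the smallest ratio between the group means, 36.1 ± 1.49 against 149 ± 11.5 CPM (SD, n = 3 each), a log2 fold change of -2.65 ± 0.50. Plk2, a polo-like kinase induced by serum and stress, was at 11.3, 25.1 and 17.95 CPM in circulating and 145, 90.9 and 118 CPM in muscle replicates 1, 2 and 3. For Plk2 circulating replicate 2 was the highest of its group, and for Gnaq the 3 circulating libraries were nearly level.

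Transcription and chromatin genes were the largest class and spanned the most abundant member and some of the least abundant ones. Id2, which blocks basic helix-loop-helix factors and is a target of BMP signalling, was at 43.1, 22.5 and 31.7 CPM in circulating and 206, 232 and 193 CPM in muscle replicates 1, 2 and 3, a log2 fold change of -3.23 ± 0.53. Tgif1, a homeodomain corepressor of SMAD-dependent transcription, was at 21.3, 19.3 and 16.1 CPM in circulating and 76.6, 117 and 141 CPM in muscle replicates 1, 2 and 3. Klf5, a zinc finger factor, was at 9.52, 9.01 and 5.67 CPM in circulating and 94.5, 36.5 and 58.8 CPM in muscle replicates 1, 2 and 3. Id2 varied little in muscle, with a coefficient of variation of 9.36%, while that of Klf5 was 46.2%. Taf4b, a subunit of the general factor TFIID, was at 16.7, 19.96 and 13.5 CPM in circulating and 90.7, 72.0 and 65.0 CPM in muscle replicates 1, 2 and 3. Bahcc1, a chromatin reader with a BAH domain, was at 4.57, 5.15 and 4.25 CPM in circulating and 31.9, 77.0 and 45.4 CPM in muscle replicates 1, 2 and 3. Of the 5 genes named, Bahcc1 had the lowest circulating level and the lowest log2 fold change, -4.02 ± 0.69.

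Yrdc and Mirg are tied to RNA. Yrdc, which makes the precursor of a threonylated adenosine of transfer RNAs, was at 3.93, 5.47 and 3.78 CPM in circulating and 46.9, 52.9 and 31.4 CPM in muscle replicates 1, 2 and 3. Mirg, a maternally expressed transcript of the imprinted Dlk1-Dio3 region that hosts a microRNA cluster, was at 11.5, 3.54 and 5.43 CPM in circulating and 38.6, 44.9 and 63.7 CPM in muscle replicates 1, 2 and 3. The reads of Mirg cannot be told apart from those of the microRNA genes within its exons, which cover 5.03% of its exon length.

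Cytoskeleton, secretory pathway and chaperone members were abundant in muscle. Dnajb9, a cofactor of the chaperone BiP that the unfolded protein response induces, was at 54.9, 29.3 and 21.0 CPM in circulating and 190, 202 and 188 CPM in muscle replicates 1, 2 and 3. Its muscle libraries lay closest together of all members, with a coefficient of variation of 4.09%, against 50.4% in circulating libraries. Mcfd2, which with Lman1 carries coagulation factors out of the endoplasmic reticulum, was at 46.3, 25.4 and 44.6 CPM in circulating and 155, 164 and 187 CPM in muscle replicates 1, 2 and 3. Katna1, the catalytic subunit of the microtubule-severing enzyme katanin, was at 21.2, 20.9 and 16.3 CPM in circulating and 87.1, 146 and 144 CPM in muscle replicates 1, 2 and 3. All 3 genes had a log2 fold change between -3.27 and -2.68.

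The ubiquitin ligase genes differed in level. Cdc16, a subunit of the anaphase-promoting complex, was at 18.4, 16.1 and 19.1 CPM in circulating and 63.5, 90.7 and 109 CPM in muscle replicates 1, 2 and 3. Trim47, a RING-type ligase, was at 3.81, 5.80 and 7.09 CPM in circulating and 34.9, 65.6 and 31.1 CPM in muscle replicates 1, 2 and 3. Cdc16 varied by 8.86% in circulating libraries, and Trim47 by 29.7%.

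**Figure D1:**
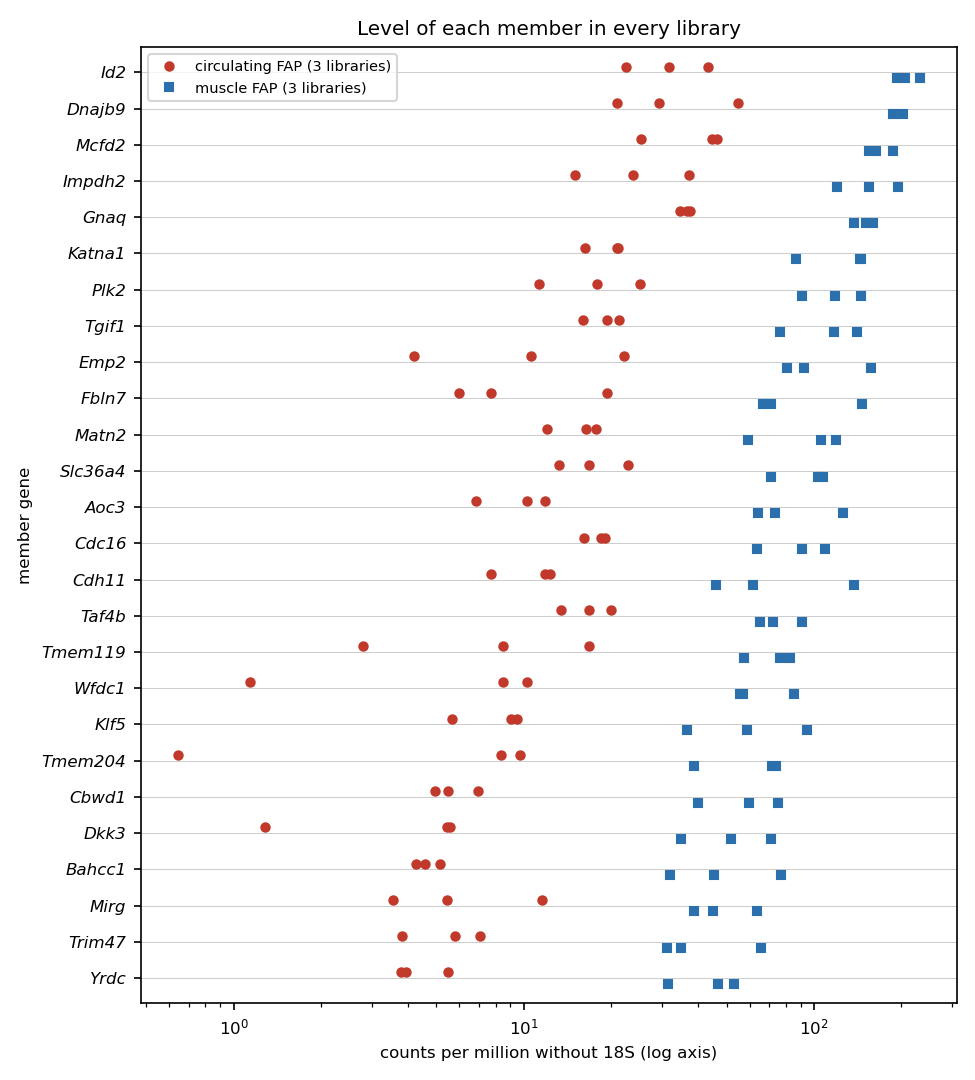
Level of 26 members in CPM without 18S (log axis), with circles for the 3 circulating libraries above squares for the 3 muscle libraries, and genes in order of their mean in muscle. Id2 stands at the top with 22.5 to 43.1 CPM in circulating and 193 to 232 CPM in muscle libraries, and Tmem204 has the lowest circulating value, 0.644 CPM.

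Taken over the members, mean levels in muscle were 4.14 times (Gnaq) to 12.8 times (Dkk3) those in circulating FAPs, with a median of 7.17 times. The 27 genes together made up 0.0435%, 0.0368% and 0.0417% of the reads without 18S in circulating libraries 1, 2 and 3, compared with 0.250%, 0.262% and 0.259% in muscle replicates 1, 2 and 3. The highest circulating level fell in replicate 1 for 12 members, in replicate 2 for 7 and in replicate 3 for 8, and the lowest muscle level fell in replicates 1, 2 and 3 for 12, 7 and 8 members. Spread was uneven: the highest circulating level was more than 2 times the lowest for 10 members, and the same held in muscle for 7 members. The median coefficient of variation of the members was 27.9% in circulating and 26.6% in muscle libraries, where genes in the same ranges of mean level had medians of 47.5% and 35.2%. A rule that requires every library to lie on 1 side of a gap favours genes of small spread, so this difference is not read further.

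The edgeR quasi-likelihood test with TMM scaling, fitted on all genes, called 0 of the 27 members lower at an adjusted p of 0.05, while it called 21 of 20248 genes tested lower (0.104%) and 1 higher (0.00494%). At an unadjusted p under 0.05 it had all 27 members lower, against 1952 genes (9.64%) lower and 1966 (9.71%) higher. DESeq2 called all 27 members lower and 1387 of 13456 genes (10.3%) lower. In 2316 genes tested (11.4%) every circulating library lay below every muscle library, as the rule requires of the members. Since the rule used this contrast, nothing is read from these counts. Log2 fold changes from edgeR lie below the log2 ratios of mean CPM (-4.19 and -3.68 for Dkk3). With 18S dropped from the fit that of Dkk3 was -4.25, and with scaling on abundant genes -3.54. The median log2 fold change of the members was -3.39 and that of all genes tested was 0.15. In counts simulated for this comparison, the test recovered 2% of 50 genes changed 4-fold, 32% of 50 changed 8-fold and 70% of 50 changed 16-fold.

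**Figure D2:**
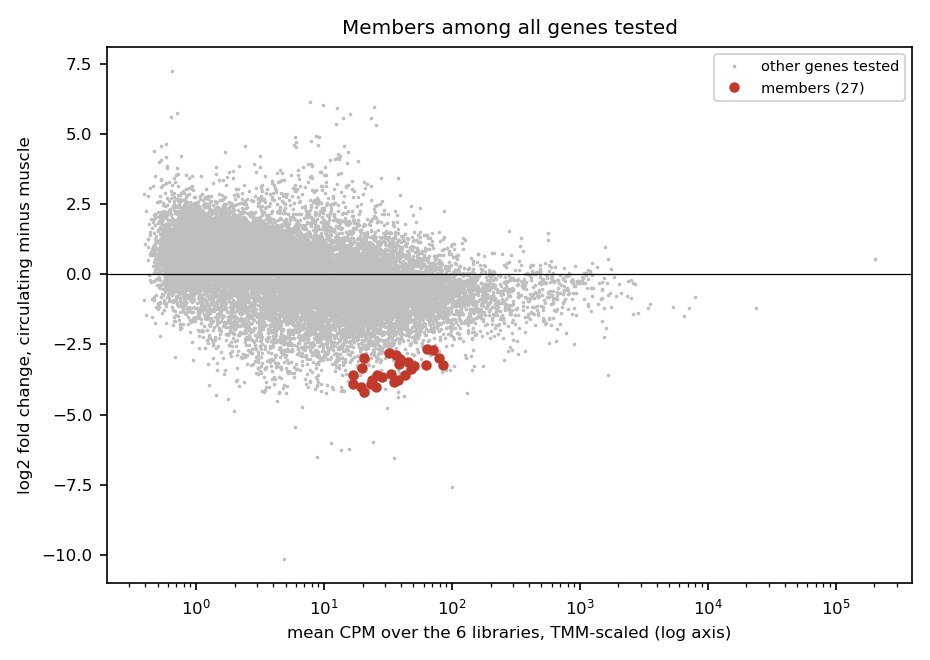
Log2 fold change (circulating minus muscle, vertical axis) of the 20248 genes tested against their mean CPM over the 6 libraries (log axis), with the 27 members as large points. The members lie between -4.19 and -2.65, at the lower edge of the genes of similar level.

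Membership depended on how CPM was scaled, because the limits of 30 CPM and 3 times act on single libraries. With the 18S reads left in the totals, 18 of the 27 met the rule, as did 18 with TMM scaling and 16 with scaling on abundant genes. The library sizes of the TMM and abundant-gene scalings also counted the 18S reads, so the 3 are not independent of one another. Counting 18S in a total lowers CPM towards the limit of 30. It lowers CPM more in circulating libraries, where 18S took a larger part of each total, and so also widens the ratio. Totals with and without 18S were 10616808 and 4233124 reads in circulating replicate 3, and 23424039 and 15864333 in muscle replicate 3. With 18S counted, 48 genes met the rule, members and others together. The 16 genes kept in all 3 were Aoc3, Wfdc1, Id2, Katna1, Gnaq, Emp2, Plk2, Tgif1, Fbln7, Tmem119, Dnajb9, Mcfd2, Matn2, Cdc16, Taf4b and Impdh2. Under none of the 3 was it met by Dkk3, Bahcc1, Yrdc, Cbwd1, Trim47, Klf5 and Mirg, with means of 43.7 to 63.3 CPM in muscle. Just inside the limit of 3 lay Slc36a4, Impdh2, Taf4b, Cdc16 and Matn2, with ratios of 3.10 to 3.34. Just outside lay Scarf2, Boc, Maged2 and Ccng2, with ratios of 2.94 to 2.996. Boc, a Hedgehog co-receptor, was at 42.1, 13.5 and 39.2 CPM in circulating and 126, 224 and 144 CPM in muscle replicates 1, 2 and 3.

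Circulating libraries had more reads on genes of chemosensory receptors, which FAPs are not known to use. This read background was taken per kilobase of exon from 386 receptor genes of the Vmn1r, Vmn2r, Taar and Tas2r families. It came to 0.825, 1.28 and 0.913 CPM per kilobase in circulating libraries 1, 2 and 3, compared with 0.337, 0.441 and 0.278 CPM per kilobase in muscle replicates 1, 2 and 3. In muscle every member stood at 8.51 to 285 times this background in each library. In circulating libraries the median member stood at 3.05, 2.15 and 3.13 times background in replicates 1, 2 and 3.

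Members divided by this measure. At 3 times background or more in each circulating library stood 8 members, Id2, Katna1, Gnaq, Plk2, Dnajb9, Mcfd2, Cdc16 and Impdh2. Dnajb9 was at 26.1, 8.95 and 9.04 times background in circulating replicates 1, 2 and 3, compared with 221, 180 and 264 times in muscle replicates 1, 2 and 3. At the other end, 10 members stayed under 3 times background in each circulating library, among them Dkk3, Bahcc1, Yrdc, Cbwd1, Aoc3, Trim47, Klf5, Cdh11 and Mirg. Bahcc1 was below background in all 3, at 0.498, 0.361 and 0.419 times, against 8.51, 15.7 and 14.7 times in muscle replicates 1, 2 and 3. A further 6 members, Dkk3, Wfdc1, Tmem204, Cdh11, Emp2 and Mirg, were at or below background in at least 1 circulating library. Reads of the gene itself and background reads cannot be told apart at these levels. The part of the background in the choice of members was not tested.

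**Figure D3:**
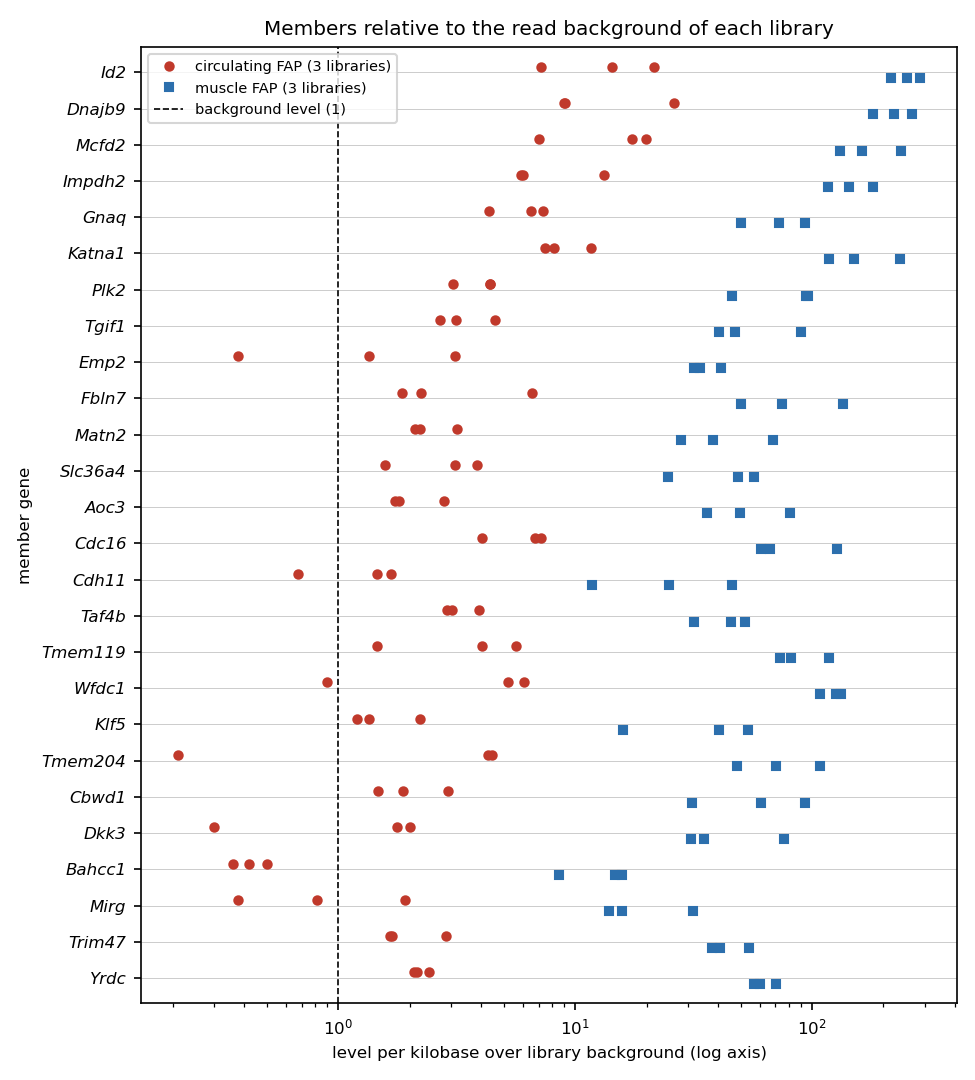
Level per kilobase of exon of 26 members divided by the read background of the same library (log axis), with circles for circulating libraries above squares for muscle libraries and a dashed line at the background. All muscle points lie at 8.51 times background or more, and 7 members have at least 1 circulating point at or left of the line.

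Per kilobase of exon, the most abundant members in muscle were Id2 (86.3 CPM per kilobase), Dnajb9 (75.9), Mcfd2 (59.6), Katna1 (57.3) and Impdh2 (50.8), and the least abundant were Bahcc1 (4.63) and Mirg (6.72). The median exon length of the members was 3.36 kilobases, against 3.91 for genes tested and 4.91 for genes with at least 30 CPM in each muscle library. Exons of other genes cover part of some members, so their reads could be shared where counting ignored strand. Antisense exons of 1110065P20Rik and Maneal cover 24.8% of the exon length of Yrdc, and those of Gm20470 cover 5.97% of Katna1. Trim65 on the same strand covers 8.23% of Trim47.

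Paralogs and known partners of the members were listed by family and complex after the members were known. They were picked after their values were seen, so they are described here and support no contrast with the members. Of 73 such genes 26 had at least 30 CPM in each muscle library, and they belong to 12 members. The groups overlapped for 20 of the 26, 22 had a negative log2 fold change, and the median was -0.82, with a range of -2.34 to 0.72. None of the 26 passed in edgeR, while 12 had an unadjusted p under 0.05, each of them with a negative log2 fold change. Over all genes tested, 9.64% were lower and 9.71% higher at that p. Every circulating library lay below every muscle library for 11.4% of genes tested. These shares are over all genes tested, whereas the 26 were kept for their level in muscle. Keeping genes by their muscle level favours lower circulating values, so nothing is read from the counts among the 26. None of the 26 had a lower log2 fold change than its member, which the choice of the members favours.

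Dnajb9 had the most relatives at this level. Hspa5, which encodes the chaperone BiP that Dnajb9 serves, was at 1073, 1099 and 934 CPM in circulating and 1688, 1920 and 2013 CPM in muscle replicates 1, 2 and 3, a log2 fold change of -1.45 ± 0.28, against -2.99 ± 0.58 for Dnajb9. Xbp1, a transcription factor of the unfolded protein response, was at 300, 62.5 and 99.9 CPM in circulating and 109, 84.4 and 67.2 CPM in muscle replicates 1, 2 and 3. The groups thus overlapped for Xbp1 and did not for Hspa5 and Dnajb9. Id3, the paralog of Id2 with the highest level, was at 477, 325 and 153 CPM in circulating and 449, 546 and 655 CPM in muscle replicates 1, 2 and 3. Id4, another paralog of Id2, was at 5.46, 26.4 and 11.6 CPM in circulating and 38.6, 55.2 and 41.9 CPM in muscle replicates 1, 2 and 3. The groups overlapped for Id3 and did not for Id4, which had a log2 fold change of -2.34 ± 0.70. Pmp22, a paralog of Emp2, was at 720, 701 and 907 CPM in circulating and 794, 789 and 790 CPM in muscle replicates 1, 2 and 3. Among further subunits of the complex of Cdc16, Anapc5 was at 198, 314 and 289 CPM in circulating and 159, 124 and 136 CPM in muscle replicates 1, 2 and 3, so that each circulating library lay above each muscle library. Its log2 fold change was 0.29 ± 0.40, against -2.88 ± 0.59 for Cdc16. Meg3, expressed from the same imprinted region as Mirg, was at 465, 635 and 711 CPM in circulating and 918, 1478 and 1184 CPM in muscle replicates 1, 2 and 3.

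**Figure D4:**
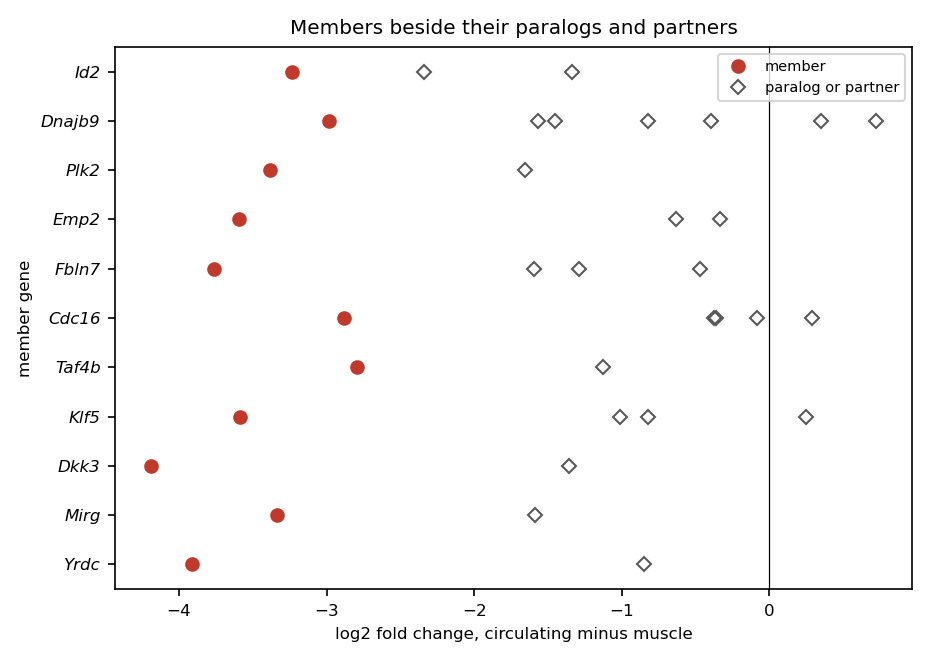
Log2 fold change (circulating minus muscle) of 11 members (filled circles) and of their paralogs and partners with at least 30 CPM in each muscle library (open diamonds). Each member lies left of all its relatives, whose values run from -2.34 (Id4) to 0.72 (Dnajb11).

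The pathways that members belong to were set beside them. Over all genes tested, 9.64% were lower and 9.71% higher at an unadjusted p under 0.05 in edgeR, and DESeq2 called 10.3% lower and 1.16% higher. In the Wnt list, which holds Dkk3, 0 of 28 genes tested passed in edgeR in either direction, 10 were lower and 0 higher at an unadjusted p under 0.05, and DESeq2 called 6 lower and 0 higher. Among TGF-beta and BMP genes, where Id2 belongs, 0 of 35 passed in edgeR, 14 were lower and 1 higher at an unadjusted p under 0.05, and DESeq2 called 9 lower and 0 higher. For matrix glycoproteins and proteoglycans, with Matn2, 0 of 48 passed in edgeR, 16 were lower and 2 higher at an unadjusted p under 0.05, and DESeq2 called 12 lower and 0 higher. Mesenchymal transcription factors, with no member among them, had 0 of 53 past the edgeR threshold, 17 lower and 2 higher at an unadjusted p under 0.05, and in DESeq2 11 lower and 1 higher. The median log2 fold change of these 4 lists was -0.94, -1.13, -0.66 and -0.83, against 0.15 for all genes tested, and with scaling on abundant genes it was -0.25, -0.47, 0.07 and -0.14, against 0.85 for all genes tested. Of the 20248 genes tested, 4736 had a mean of at least 20 CPM. The lists were not matched to genes of similar level, so no shift of a pathway is read from these medians. The members' own median of -3.39 is fixed by their choice and is not compared with those of the lists.

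In 7 more lists that hold no member, edgeR called 0 genes in either direction. Beside 10.3% lower and 1.16% higher over all genes, DESeq2 called 9 of 35 growth and neurotrophic factors lower, 6 of 32 growth factor receptors lower and 1 higher (Csf1r), and 5 of 37 matrix remodelling genes lower. It called 13 of 45 immediate early and dissociation genes lower, 2 of 44 cytoskeletal genes, 5 of 31 adipogenic and lipid genes and 10 of 42 genes of RNA binding and splicing. These list sizes count genes tested in edgeR, whereas the 10.3% and 1.16% are shares of the 13456 genes tested by DESeq2. The immediate early list, which includes genes induced while cells are isolated, had 24 lower and 0 higher at an unadjusted p under 0.05 in edgeR, where 9.64% of all genes were lower and 9.71% higher. Its part in the levels of the members was not tested.

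Of the members, 15 had 19 promoter windows of 250 bases before to 50 after a gene start in RefSeq (GRCm38.p6), 5 of them for Tgif1. The windows had a median GC content of 65.7%, against 58.0% in 17953 windows of genes tested. The GC box GGGCGG, read on both strands, was found in 12 of the 19 windows (63.2%), against 51.2% of windows of genes tested and 35.7% of all 32851 windows. It lies within 150 bases before the start of Id2, Mcfd2, Gnaq and Plk2 in the sequences shown above, with overlapping copies in Mcfd2. The cyclic AMP response element TGACGTCA was found in Plk2 alone (5.26% of member windows and 2.43% of windows of genes tested). The TEAD motif CATTCC was found in Fbln7, and the TATA box TATAAA and the RUNX motif TGTGGT in Impdh2. These motifs occur in 13.2%, 9.85% and 13.7% of windows of genes tested. In Impdh2 the letters TATAAA read on the opposite strand, at bases 3 to 8 after the start. None of the 19 windows held the AP-1 motif TGANTCA, the homeodomain motif TAATTA or the serum response CArG box, which 6.69%, 3.83% and 1.40% of windows of genes tested hold. A match describes letters in a window and is not a bound site.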

How the data were processed

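The authors deposited whole-number read counts by gene symbol for the 6 libraries. Tools named in the submitters' processing notes are STAR, featureCounts and Trim Galore, with build GRCm39; versions, strand setting and annotation are not given in the sources used here. Samples were grouped by their labels. CPM were computed over totals without Rn18s and Rn18s-rs5. Differential expression was fitted with edgeR 4.0.16 in R 4.3.3 (quasi-likelihood, robust, TMM, filterByExpr, 20248 genes, Benjamini-Hochberg), without a replicate block, and with DESeq2 1.42.0 as an alternative. The standard error is the coefficient over the square root of its F. Replicates differed far beyond sampling noise (chi-square per degree of freedom 67.8 to 104). The steps were tested on simulated counts. Exon lengths came from GENCODE M21 (GRCm38), matched by symbol for all 27 members.

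The members and lists were chosen with earlier results of these data known. The rule for named genes gave values in all samples for the 12 members with the largest ratio, the 12 highest in muscle, up to 6 of each role and the 5 nearest the limit, which takes in all 27, though 1 member and 1 gene just outside the limit are not reported here by name. Paralogs and partners lie outside that rule and were picked after their values were seen. Alternatives were other scalings (the one on abundant genes takes TMM from these alone), no filter, 18S dropped, the block, other limits of the rule and each library left out.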

Additional observations from a re-analysis of the deposited data

How the results depend on the processing

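The rule fixes the direction of the members, so their signs are no measure of stability. Of 22 genes past the threshold, RLE size factors gave 43, upper quartile scaling 2, scaling on abundant genes 7, no filter 160 and DESeq2 1543; the counts were 0 to 65 with a library left out, 65 when circulating replicate 1 was dropped, 0 when muscle replicate 3 was dropped, and 1 for each of the other 4. The fit with the replicate block gave 1 gene and 0 members. Deviations of same-numbered samples correlated at -0.0138, 0.0541 and -5.80e-06, and those of differently numbered samples at -0.0798 to 0.0782. With 3 libraries per group, this does not settle whether the numbers pair samples. From 0 members past the threshold, RLE size factors gave 4 (Aoc3, Id2, Impdh2 and Katna1), TMMwsp scaling 1 (Id2), library size alone 1 (Id2), no filter 24 and DESeq2 27, and leaving out a library gave 0 to 3 (Dnajb9, Emp2 and Id2 without circulating replicate 1). The median log2 fold change of the members was -3.39, -2.69 with upper quartile scaling and -2.70 with scaling on abundant genes, which moved the median of all genes to 0.83 and 0.85, and -3.60 to -3.30 with a library left out. The rule gave 85 genes at a ratio of 2, 6 at a ratio of 5, 47 at 10 CPM, 5 at 100 CPM, 48 with 18S in the totals, 59 with TMM and 16 with scaling on abundant genes, and 47 to 74 with a library left out, which loosens it. For the rule, the TMM and abundant-gene scalings also kept 18S in the library sizes. The causes were not tested. Depth limits the circulating levels, which rest on 2 to 433 reads per library.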
